A study of Mus musculus with 4 samples.

Results

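Pitx1 encodes a paired-type homeodomain transcription factor that sets hindlimb (HL) identity. Its locus was described here as the 1 Mb of mouse chromosome 13 between 55.5 and 56.5 Mb, with Pitx1 itself at about 55.926 to 55.932 Mb (all coordinates are mm9). The members are the Meis ChIP-seq summits that lie in this window, chosen by position: 37 of 22906 summits in forelimbs (FLs) and 32 of 17810 summits in HLs. A peak can hold several summits, and summits with the same start and end were counted as 1 region with the highest fold enrichment. This gave 35 of 21338 FL regions and 32 of 16987 HL regions.

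The libraries came from limb buds of wild-type C57BL/6 embryos at E10.5 (36 somites), and about 500 FLs and about 500 HLs were pooled. Each limb gave 1 library of chromatin precipitated for Meis and 1 library of input chromatin, 4 single-end libraries of 50 bp reads in all. Precipitation combined an antibody to Meis1a, Meis2a and Meis2c with an antibody to every Meis1 isoform, so Meis1 and Meis2 cannot be told apart at any region. There was no replicate, so no value has a replicate error and the limbs were not tested against each other. Because whole buds were pooled, binding in fewer cells and weaker binding per cell cannot be told apart. HL buds lag FL buds in outgrowth at the same age, so limb type and progress of outgrowth cannot be told apart either. Expression was not analysed here, so the limb labels were not checked against Pitx1, Tbx4 or Tbx5 transcripts.

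In the mouse embryo Pitx1 is transcribed in HL buds and not in FL buds, where it acts upstream of the T-box gene Tbx4 and gives HL skeleton and muscle their form. Its transcription depends on enhancers spread over a large stretch of DNA around the gene, some of which can act in both limbs. Meis1 and Meis2 are TALE homeodomain factors of the proximal limb that bind DNA together with Pbx and Hox proteins.

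The Pitx1 window was dense in Meis regions in both limbs. The 35 FL regions compare with a median of 6 (quartiles 2 and 11) over 2580 windows of 1 Mb laid along the genome in the same phase, and 2525 windows (97.9%, 95% Wilson interval 97.2 to 98.4) held fewer. The 32 HL regions compare with a median of 4 (quartiles 1 and 9), and 2516 windows (97.5%, 96.8 to 98.1) held fewer. The intervals cover counting error only. The neighbouring 1 Mb at lower coordinates held 22 FL and 17 HL regions, and that at higher coordinates held 6 FL and 14 HL regions. FL regions made up 52.2% (40.5 to 63.8) of the 67 regions of the window and 55.7% of all regions of the lists.

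**Figure D1:**
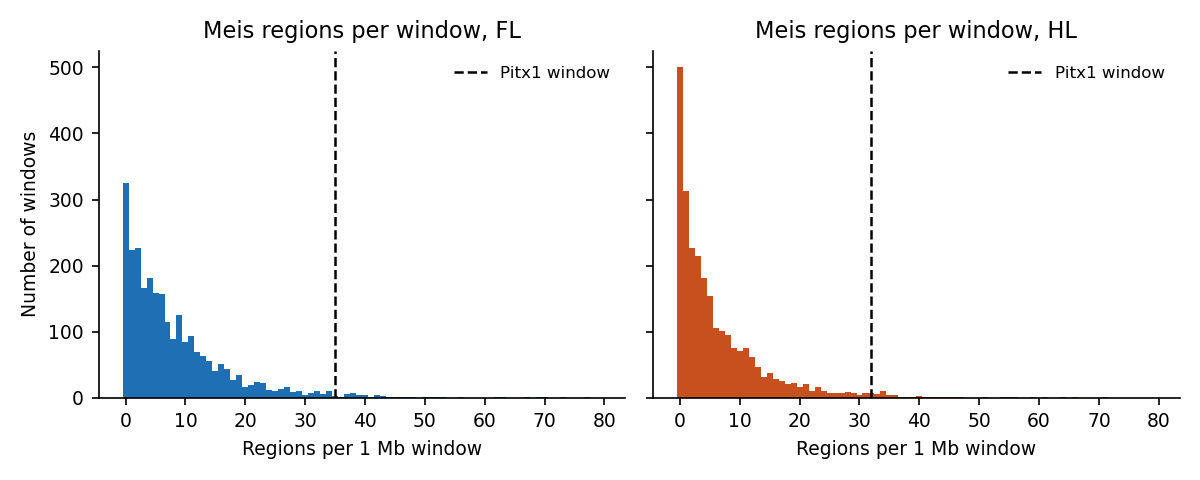
Number of 1 Mb windows (y axis) by the number of Meis regions they hold (x axis) in FLs (left) and HLs (right), with the Pitx1 window as a dashed line. The Pitx1 window, with 35 FL and 32 HL regions, lies in the sparse right part of both distributions, whose medians are 6 and 4.

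The order of the limbs depended on how weak a region was admitted. Both lists reach far into weak signal, to p-values of 0.022 in FLs and 0.0217 in HLs. In the methods of the study, calls this loose served to find peaks shared by the limbs, and a stricter cutoff of p served for peaks of a single limb. The counts over the whole lists therefore do not correspond to the limb-specific peaks of the study. With only regions of p at most 0.0005, the window kept 6 of its FL regions (17.1%, against 31.7% of the whole FL list) and 15 of its HL regions (46.9%, against 37% of the whole HL list). HLs then had more regions than FLs. The order also turned when the longer FL list was shortened to the length of the HL list by p, with 25 FL and 32 HL regions in the window. Set against windows counted in the same way, the 6 FL regions exceeded 86.2% of 2569 windows (median 2) and the 15 HL regions exceeded 99.3% (median 1), a comparison chosen after seeing the data.

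Few of these regions passed a cutoff that accounts for the number of places tested. The q-value of a region is its p-value after such a correction by the peak caller, and it is 1 for the weakest regions. In the window 29 of 35 FL regions had a q of 1 (82.9%, 67.3 to 91.9), beside 68.8% of all FL regions. In HLs these were 23 of 32 regions (71.9%, 54.6 to 84.4), beside 78.8% of all HL regions. The rest of the chromosome had 501 of 847 FL regions and 475 of 656 HL regions with a q of 1. That share lay below the interval of the window in FLs and within it in HLs. In FLs, 5 of 35 regions had a q of at most 0.05 (14.3%, 6.26 to 29.4), beside 17.4% of all FL regions and 23.6% in the rest of the chromosome. In HLs the number was 3 of 32 regions (9.38%, 3.24 to 24.2), beside 10.1% of all HL regions and 15.1% in the rest of the chromosome. The shares with a q of at most 0.05 were thus near those of the whole lists. Their intervals took in the shares of the chromosome too. As counts, 5 FL regions exceeded 93% of windows and 3 HL regions exceeded 93.6%. Among the other 54 windows with at least as many FL regions, the median was 4 such regions (0 to 36) and 20 windows had more than 5. Among the other 63 windows with at least as many HL regions, the median was 1 (0 to 25) and 15 windows had more than 3. Both of these last comparisons were chosen after seeing the data.

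Fold enrichment is the ratio of ChIP signal at the summit to the local background of the input. In FLs the folds of the window ran from 2.13 to 10.99 with a median of 2.66 (95% interval from order statistics 2.53 to 2.80), beside 2.78 over the whole list and 2.88 (2.88 to 3.04) in the rest of the chromosome. In HLs they ran from 2.09 to 7.58 with a median of 2.87 (2.66 to 3.26), beside 2.78 over the whole list and 2.88 (2.78 to 2.89) in the rest of the chromosome. The FL median was thus below both of its comparison values, with an interval that reached that of the list but not that of the chromosome, while the HL median lay above that of its list and near that of the chromosome. Weak folds come in steps, and a value such as 2.53 was shared by 1427 FL regions, so ranks among weak regions carry little information. Regions had a median length of 152 bp in FLs (119 to 980) and 136.5 bp in HLs (100 to 500).

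**Figure D2:**
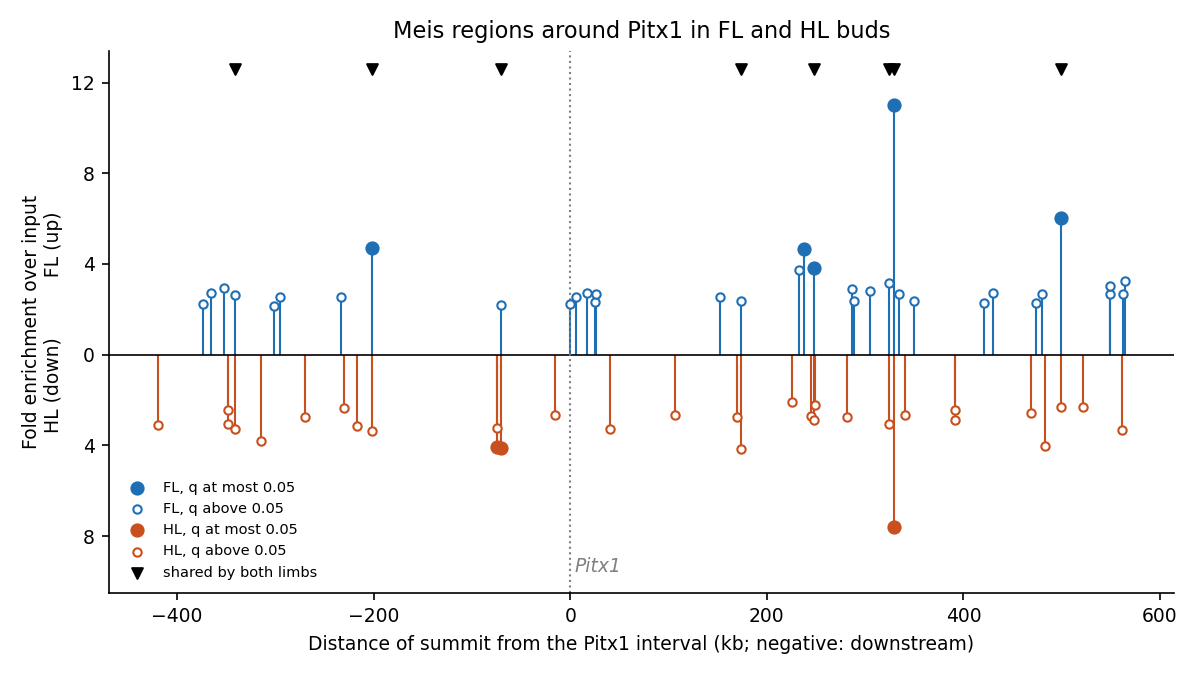
Fold enrichment over input of each Meis region (y axis, FLs upward and HLs downward) by the distance of its summit from Pitx1 in kb (x axis, negative for downstream), with filled points for q at most 0.05 and triangles for places shared by both limbs. The highest points of both limbs, 10.99 and 7.58, stand at the same place 329 kb upstream of Pitx1.

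The tallest region of the window was the same in both limbs. It lay 329 kb upstream of Pitx1 at chr13:56260800-56261779 in FLs and at chr13:56261025-56261524 in HLs, and the summits were 13 bp apart. Its fold was 10.99 in FLs (q = 1.49e-23) and 7.58 in HLs (q = 3.05e-11). These folds ranked 107 of 21338 in FLs and 174 of 16987 in HLs, and they exceeded the highest fold of 96.3% and 94.1% of the 1 Mb windows. The highest fold of a window tends to rise with its number of regions, and windows of like density were not compared for it. At 980 and 500 bp the region was also the longest of the window in each limb. The FL region held a weaker summit as well, with a fold of 2.78. The FL fold was 1.45 times the HL fold (log2 ratio 0.54), where the median log2 ratio over all 4813 shared pairs was 0.17 (0.15 to 0.19), and 75% of those pairs had a lower ratio. This was the only place in the window with a q of at most 0.05 in both limbs. Across the genome 1200 of the shared pairs (24.9%) met that condition.

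Altogether the 67 regions marked 59 places, of which 8 were shared, 27 were seen in FLs alone and 24 in HLs alone, that is 77.1% of the FL regions (77.4% over the whole list) and 75% of the HL regions (71% over the whole list). Sharing meant an overlap of at least 1 bp between an FL and an HL region. The order of the limbs turned under other cutoffs, which for this count were chosen after seeing the data. With both lists at p at most 0.0005, 4 of 6 FL regions (66.7%, 30 to 90.3) were seen in a single limb, beside 61.5% of all FL regions at that cutoff, and 13 of 15 HL regions (86.7%, 62.1 to 96.3), beside 57.9% of all HL regions. With the same cutoff but the whole list of the other limb to overlap with, these were 2 of 6 in FLs (33.3%, 9.68 to 70), beside 48.5% of all FL regions, and 9 of 15 in HLs (60%, 35.7 to 80.2), beside 48.2% of all HL regions. With lists of the same length, they were 18 of 25 in FLs (72%), beside 73.3% of all FL regions, and 25 of 32 in HLs (78.1%), beside 72.6% of all HL regions. The share of the list lay within the 95% interval of the window in each of these counts except that of HLs with both lists at the stricter cutoff, and whether that share differs from the list was not tested. The 8 shared places made up 22.9% of the FL regions (12.1 to 39), beside 22.6% of all FL regions and 30.2% in the rest of the chromosome. They made up 25% of the HL regions (13.3 to 42.1), beside 29% of all HL regions and 39.9% in the rest of the chromosome. Overlap in the window was thus near that of the whole lists. The summits of the shared places were a median of 14 bp apart, and 7 of the 8 pairs lay within 100 bp, beside a median of 30 bp and 85.5% of all pairs.

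Folds at the shared places were higher in FLs at some and in HLs at others. The FL fold was higher at 5 places and the HL fold at 3, with a median log2 ratio of FL to HL of 0.24 (-0.90 to 1.39, the full range), beside 2991 and 1822 of all shared pairs. That median was 0.41 with summits within 100 bp and 0.07 after subtracting the median of all pairs. The FL fold was at least 1.5 times the HL fold at 1 of the 8 places, beside 22.2% of all shared pairs. The HL fold was at least 1.5 times the FL fold at 2 of the 8, beside 7.65% of all shared pairs. With 8 pairs and no replicate, these shares describe these libraries and whether they differ from the genome was not tested.

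**Figure D3:**
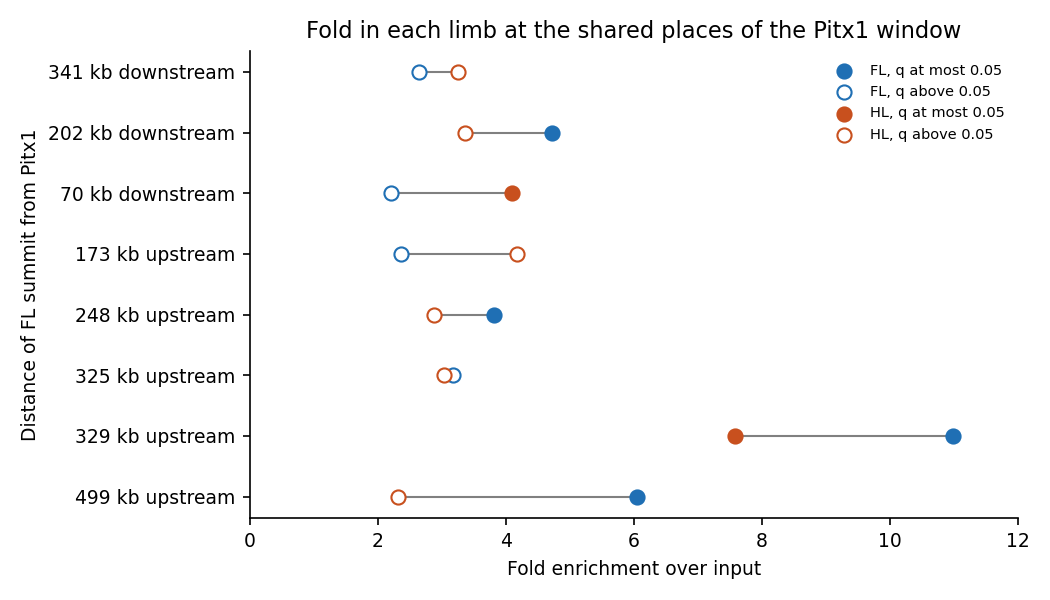
Fold enrichment over input (x axis) in FLs and HLs at the 8 shared places, listed by the distance of the FL summit from Pitx1 (y axis), with filled points for q at most 0.05. The HL point lies farthest to the right of the FL point at 70 kb downstream (4.10 against 2.20), and the FL point farthest to the right of the HL point 499 kb upstream (6.04 against 2.31).

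The places with higher HL folds lay on both sides of the gene. At 70 kb downstream, the fold was 2.20 in FLs (chr13:55855826-55856253, q = 1) and 4.10 in HLs (chr13:55855860-55856179, q = 0.0462), a ratio of HL to FL of 1.86, and 2.70% of all shared pairs had a lower ratio of FL to HL. At 173 kb upstream, it was 2.36 in FLs (chr13:56105365-56105539, q = 1) and 4.17 in HLs (chr13:56105361-56105567, q = 0.0944), a ratio of 1.77, with 3.47% of all shared pairs lower. These are the 2 places past 1.5-fold, and their summits coincided within 15 and 31 bp. At 341 kb downstream the folds were 2.64 in FLs (chr13:55585302-55585420) and 3.26 in HLs (chr13:55585406-55585510), with a q of 1 in both. That pair shared 15 bp and its summits were 133 bp apart, so it was lost when summits had to lie within 100 bp.

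Near the place 70 kb downstream, HLs had further regions. The HL region at chr13:55851803-55852038, 74.1 kb downstream, was seen in HLs alone, with a fold of 4.05 (q = 0.0209). The nearest FL summit was 4.08 kb away, at the shared place just described. A weaker HL region at chr13:55851555-55851704 (fold 3.24, q = 1) stood beside it. The 3 HL regions thus fell within 4.33 kb, with folds from 3.24 to 4.10, where FLs had 1 region of fold 2.20. They included 2 of the 3 HL regions of the window with a q of at most 0.05. Within 100 kb of Pitx1 these 2 made up 40% of 5 HL regions (11.8 to 76.9), beside 10.1% of all HL regions. None of the 6 FL regions there reached that cutoff (0 to 39%), beside 17.4% of all FL regions. Neither of the 2 HL regions had a q of at most 0.01, and whether these shares differ from the lists was not tested. The group was described after its HL folds were seen, so the lower FL fold there is no separate result.

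Upstream, the place with the largest ratio had the higher fold in FLs. At 499 kb upstream, the fold was 6.04 in FLs (chr13:56430632-56430883, q = 5.6e-07) and 2.31 in HLs (chr13:56430712-56430873, q = 1), with summits 9 bp apart. The FL fold was 2.61 times the HL fold (log2 ratio 1.39), and 97.9% of all shared pairs had a lower ratio. By fold the FL region ranked 917 in its list and the HL region 14129 in its own. A stronger HL region stood at chr13:56414758-56414859, 483 kb upstream, with a fold of 4.03 (q = 0.0806), and the nearest FL summit, 2.64 kb away, had a fold of 2.66.

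A group of FL regions lay between the tallest region and the gene. From 233 to 248 kb upstream, 3 FL regions within 15.7 kb had folds of 3.71, 4.65 and 3.82. The middle region, chr13:56169849-56170141, had a q of 0.00355 and no overlapping HL region, and the nearest HL summit, 7.27 kb away, had a fold of 2.69. The region at chr13:56180342-56180461 had a q of 0.044 and was shared with an HL region of fold 2.88 (chr13:56180316-56180470, q = 1). The region at chr13:56164644-56164786 had a q of 0.115. Between 220 and 250 kb upstream HLs had 4 regions, more than the 3 in FLs, but their folds of 2.09 to 2.88 all lay below the FL folds of 3.71 to 4.65. This stretch was drawn around the FL regions after their folds were seen, so the lower HL folds there are no separate result.

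The remaining shared places lay on either side of the gene. At 202 kb downstream the fold was 4.72 in FLs (chr13:55724348-55724523, q = 4.87e-05), the only downstream FL region with a q of at most 0.05, and 3.37 in HLs (chr13:55724417-55724518, q = 0.0638). The FL fold was 1.4 times the HL fold there. At 325 kb upstream, on the gene side of the tallest region, the folds were almost equal, 3.17 in FLs (chr13:56256464-56256678, q = 1) and 3.04 in HLs (chr13:56256494-56256673, q = 0.514), and the summits were 3 bp apart.

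**Figure D4:**
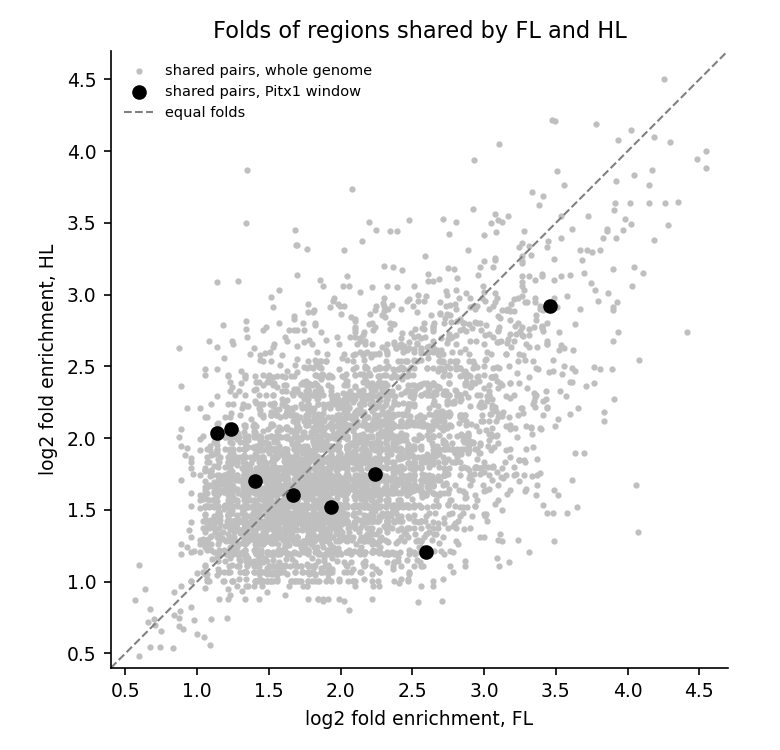
Log2 fold enrichment in FLs (x axis) and HLs (y axis) of the 4813 shared pairs of the genome (grey) and the 8 of the Pitx1 window (black), with a dashed line where both folds are equal. The window's pairs spread to both sides of the line, 5 below it and 3 above it.

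No listed region had its summit within the Pitx1 interval in either limb. Pitx1 runs toward lower coordinates, so higher coordinates are upstream. In FLs the nearest regions were chr13:55925446-55925597, 0.504 kb downstream of the gene (fold 2.22), and chr13:55937717-55937890, 5.76 kb upstream (fold 2.54). In HLs they were farther away, chr13:55910098-55910197 at 15.9 kb downstream (fold 2.66) and chr13:55971974-55972073 at 40 kb upstream (fold 3.27). All 4 regions had a q of 1. The position of Pitx1 is known here to the nearest kb over 6 kb, while its longest RefSeq model in GRCm38 spans 11.1 kb, so whether the closest FL regions lie outside every transcript form was not established.

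Regions were spread unevenly along the window. In FLs, 25 regions lay in the 568 kb upstream (4.40 per 100 kb) and 10 in the 426 kb downstream (2.35 per 100 kb). In HLs, 19 lay upstream (3.35 per 100 kb) and 13 downstream (3.05 per 100 kb). In FLs, 4 of 25 upstream regions had a q of at most 0.05 (16%, 6.4 to 35). Downstream it was 1 of 10 (10%, 1.79 to 40.4), beside 17.4% of all FL regions. In HLs it was 1 of 19 upstream (5.26%, 0.935 to 24.6) and 2 of 13 downstream (15.4%, 4.33 to 42.2). The share of all HL regions was 10.1%, and each interval took in the share of its list. Within 100 kb of the gene FLs had 6 regions with folds of 2.20 to 2.70, and HLs had 5 with folds of 2.66 to 4.10. The stretch from 100 to 200 kb downstream was empty in both limbs, part of a gap between summits of 131.6 kb in FLs and 127.2 kb in HLs. FLs had a further gap of 126.2 kb upstream, and the median gap between summits was 13.5 kb in FLs and 23.2 kb in HLs.

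**Figure D5:**
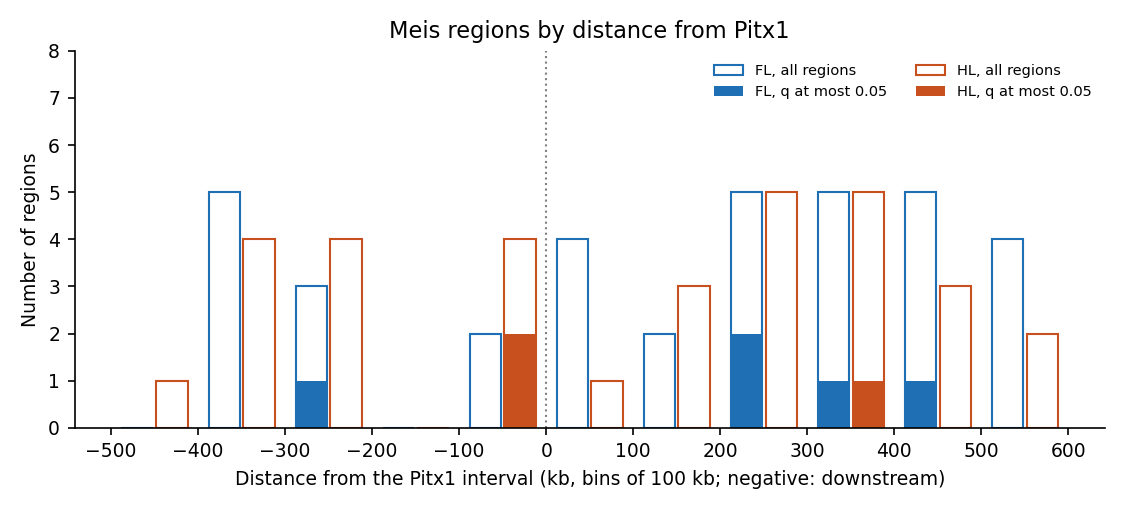
Number of Meis regions (y axis) in bins of 100 kb by distance from Pitx1 (x axis, negative for downstream), with outlined bars for all regions and filled bars for q at most 0.05. No region lies between 100 and 200 kb downstream in either limb, and the outermost bins reach past the ends of the window.

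By gene order in the GRCm38 RefSeq table, the protein-coding neighbours on the upstream side are Macroh2a1, Tifab, Neurog1, Cxcl14 and Slc25a48, and those on the downstream side are Catsper3, Pcbd2, Txndc15, B230219D22Rik and Ddx46. Macroh2a1 encodes a histone variant and Neurog1 a neurogenic bHLH factor. An mm9 annotation was not used here, so which regions lie in these genes, in exons, introns or between genes was not established, and no region was assigned to Pitx1 or to a neighbour.

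The regions not described singly were weak. None of the other FL or HL regions of the window had a q of at most 0.05. The strongest of them was an HL region 315 kb downstream at chr13:55610967-55611134, with a fold of 3.80 (q = 0.279). At the lower edge of the window, the first FL summit inside lay at 55.5521 Mb (fold 2.22) and the last outside at 55.4810 Mb (fold 3.06). The HL summits there lay at 55.5062 Mb (fold 3.09) and 55.2916 Mb (fold 3.62, q = 0.046). At the upper edge, the last FL summit inside lay at 56.4966 Mb (fold 3.23) and the first outside at 56.5535 Mb (fold 2.53). The HL summits there lay at 56.4937 Mb (fold 3.33) and 56.5308 Mb (fold 3.38). All 8 of these folds lay between 2.22 and 3.62.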

How the data were processed

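Per the submitters' processing notes and the study's methods, the authors processed reads with CASAVA 1.8.2 and cutadapt 1.3, aligned them to mm9 with BWA, marked duplicates, filtered alignments and called peaks with MACS2, with separate summits, using input chromatin of the matching limb as control. The deposited fold is the authors' ratio of ChIP signal to local background. The deposited −log10 p and −log10 q are the peak caller's, and a −log10 q of 0 was read as a q of 1. Per the study's methods, the cutoff for detection was p of 0.0005, and the looser calls, to which the deposited lists extend, served for peaks shared by both limbs. No test was added.

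Regions are unique combinations of start and end, with the highest fold and lowest p and q. Each FL region was paired with the overlapping HL region of highest fold (at least 1 bp in common). Shares have 95% Wilson intervals and medians order-statistic intervals, both for counting error only. Read depth per region was not used here, so its precision is unknown. Named regions are those with q at most 0.05, the shared pairs, the 3 highest folds per limb and the nearest to Pitx1. The regions at 233, 315 and 483 kb and the weaker one at 74.4 kb were named after their values were seen. The stretch from 220 to 250 kb upstream and the HL group near 70 kb downstream were also chosen after their folds were seen. The members and lists were chosen with earlier results of these data known. Alternatives changed the p or q cutoff, counting unit, list length, window, overlap, pairing, centring and grid. Tables were computed in Python 3.11.15 with pandas 2.3.3 and numpy 2.4.6, intervals of medians with scipy 1.17.1 and figures with matplotlib 3.10.9. The overlap code was checked on simulated regions with planted overlaps, and no overlap share was set against chance. The genome at hand was GRCm38, so no peak sequence was read and no coordinate converted.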

Additional observations from a re-analysis of the deposited data

How the results depend on the processing

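Of 38 alternatives, 22 left a count within 1.5 times its value or a share, median or ratio within its interval, and 16 did not. A count within that limit can still turn the order of the limbs: with lists of the same length the window held 25 FL and 32 HL regions, of which 18 and 25 were seen in a single limb. With only regions of p at most 0.0005, the window held 6 FL and 15 HL regions, the same 15 HL regions stood in place of the 3 with q at most 0.05, and the share of windows with fewer regions was 86.2% in FLs and 99.3% in HLs. Regions seen in a single limb were then 4 of 6 in FLs (61.5% of the list) and 13 of 15 in HLs (57.9% of the list), or 2 of 6 (48.5%) and 9 of 15 (48.2%) where the whole list of the other limb could overlap them. The comparisons of windows at this cutoff and of regions seen in a single limb were chosen after seeing the data. Within 250 kb of Pitx1 there were 13 FL and 15 HL regions, and within 100 kb 6 FL and 5 HL regions, fewer by construction since the stretch is shorter. With q at most 0.01, 1 HL region was left (3.12% of the window, beside 7.76% of the list). With q at most 0.05 and a fold of at least 5, 2 FL regions (5.71%, beside 7.67%) and 1 HL region (3.12%, beside 4.67%) were left. Beyond the shorter stretches, the cause of these shifts was not tested. The share of overlapping regions was 20 to 33.3% in FLs and 13.3 to 25% in HLs over most settings tried. These were the overlap rules, both lists at p at most 0.0005, and lists of the same length. Overlap was more common in both limbs where only the limb's own list was cut at that p. Regions seen in a single limb were then 33.3% in FLs and 60% in HLs. The median log2 ratio of FL to HL at shared places was 0.41 with summits within 100 bp and 0.07 after subtracting the median of all pairs. No paired analysis was possible because each limb has 1 ChIP library, and for the same reason no library could be left out. A place listed in 1 limb may hold signal below the cutoff in the other. Whether read depth limited which weak regions were listed was not tested.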

Other observations

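Of 14 listed limb-type and Meis-partner genes, 5 had a promoter in the RefSeq table of GRCm38 (Tbx4, Isl1, Meis1, Meis2 and Pbx2), each of 300 bases around the gene start. Pitx1 was among the 14 but had no promoter there, so its promoter was not searched. Each motif was searched on both strands, and the Hox-Pbx motifs share their opening letters. The Meis motif TGACAG occurred in 19.2% of 32851 promoters, the Hox-Pbx motifs TGATTTAT and TGATTGAT in 0.977% and 0.746%, the T-box motif GGTGTGA in 3.98% and the bicoid-type motif TAATCC in 7.06%. The only match among the 5 promoters was TAATCC in that of Isl1, a LIM homeodomain gene of the early HL field. No mm9 position of these promoters was used here, so no Meis region was set beside them.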
